A study of Mus musculus with 12 samples.

Results

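The 10 genes described here encode the ligand-sensing transcription factors that set much of the metabolic programme of the liver: Nr1i3 (CAR), Nr1i2 (PXR), Ahr, Nr1h4 (FXR), Nr0b2 (SHP), Nr5a2 (LRH-1), Ppara, Nr1h3 (LXR alpha), Rxra and Hnf4a. They were chosen by name from what is known of these factors, but with earlier results of these data known. The choice was therefore not independent of the data. Each matched a single probe set, so that 10 of the 19938 genes measured are described and none was lost. Ahr is a basic helix-loop-helix PAS protein and not a member of the nuclear receptor family. It is included because it senses xenobiotics in the same cells.

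The mice were male, on a C57Bl6/J background (C57Bl/6 in the strain label), and their whole livers were measured in 3 groups of 4 arrays. WT untreated livers came from wild-type mice with no treatment, WT LPS livers from wild-type mice that received 1 µg/kg of lipopolysaccharide (LPS, a bacterial outer membrane component that activates NF-kB), and S534A LPS livers from mutant mice at this dose. The series title gives the LPS only as 1 µg, with no body weight, whereas the sample labels give 1 µg/kg. S534A mice are homozygous for a knock-in that puts alanine in place of a serine of p65 in every cell. Rela encodes p65, a subunit of NF-kB. The targeting construct carried a mutated exon 10 and was introduced in PTL1 embryonic stem cells, where 2 clones were identified. The selection cassette was removed with FLPe, and the line went through 5 backcrosses to C57Bl6/J. The sources used here give neither the age of the mice nor the time from LPS to tissue collection. No S534A liver without LPS was analysed here, and genotype differences that precede LPS therefore cannot be told apart from differences in the response to it. Titles of untreated and LPS arrays follow different schemes, and should the groups have been run separately, array run and LPS cannot be told apart. The labels do not state that each array came from a separate animal, so the p-values reflect the spread among these arrays, which may be technical.

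Nuclear receptors bind DNA at short repeated elements and switch target genes on or off according to a small lipophilic ligand. In hepatocytes, CAR and PXR respond to drugs and other foreign compounds, FXR to bile acids, LXR alpha to oxysterols and PPAR alpha to fatty acids, and each of these binds DNA as a heterodimer with RXR alpha. HNF4 alpha and LRH-1 act without RXR and maintain hepatocyte genes and bile acid synthesis, and SHP, which lacks a DNA-binding domain, represses LRH-1 and HNF4 alpha after being induced by FXR. Repression of hepatic nuclear receptors is a known feature of the acute-phase response.

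The promoters of Nr1i3 and Nr0b2 are shown because these receptors differed most among the untreated livers and in opposite directions, as described further on. Each sequence holds the 250 bases before a RefSeq transcript start on GRCm38.p6, read 5′ to 3′. Capitals mark the E-box CACGTG, the element bound by CLOCK and BMAL1 of the circadian clock, and in Nr0b2 also TCAAGG, the core of the element bound by LRH-1.
Nr1i3 promoter, chr1:171213720-171213969, plus strand: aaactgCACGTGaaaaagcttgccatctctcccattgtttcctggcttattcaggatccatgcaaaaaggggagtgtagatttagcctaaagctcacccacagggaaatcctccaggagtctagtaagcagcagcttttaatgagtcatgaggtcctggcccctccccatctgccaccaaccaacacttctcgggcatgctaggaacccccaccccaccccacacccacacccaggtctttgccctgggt
Nr0b2 promoter, chr4:133553126-133553375, plus strand: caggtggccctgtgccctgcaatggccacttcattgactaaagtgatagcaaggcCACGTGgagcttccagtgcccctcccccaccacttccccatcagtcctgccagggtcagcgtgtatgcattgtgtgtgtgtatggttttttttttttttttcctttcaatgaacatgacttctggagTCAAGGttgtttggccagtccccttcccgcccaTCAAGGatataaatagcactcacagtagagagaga
RefSeq promoter windows of 300 bases, from 250 before to 50 after the start, matched 9 of the 10 genes with 13 windows. Ahr had no entry. CACGTG, searched on both strands as were all 14 motifs, was present in 7.15% of all 32851 windows and, among these 9 genes, in Nr1i3 at bases 244 to 239 before the start and in Nr0b2 at bases 195 to 190 before it. TCAAGG was present in 14.4% of windows and in Nr0b2 alone of the 9, at bases 68 to 63 and 35 to 30 before the start. AGGTCA, the core element of nuclear receptors, was present in 16.3% of windows, among them those of Nr1h4, Nr5a2 and Rxra. GCGTG, the core of the element bound by AHR with ARNT, was present in 32.4% of windows, among them those of Nr0b2, Nr5a2 and Ppara. AACAAA, a forkhead core, was present in 20.2% of windows, among them those of Hnf4a and Nr5a2. Both NF-kB elements searched, variants of the classical kappa-B site (0.155% and 0.0974% of windows), and the D-box TTATGTAA bound by DBP (0.938%) were not found in the windows of the 9 genes. Nor were the C/EBP elements TTATGCAA (0.743%) and TTGCGCAA (0.183%), the HNF4 element CAAAGTCCA (0.475%), the longer NR5A elements CAAGGTCA (1.56%) and TCAAGGTCA (0.423%), or the direct repeat of AGGTCA with no spacer (0.00609%). TCAAGGTCA contains CAAGGTCA, AGGTCA and TCAAGG, and the direct repeat contains TCAAGGTCA. A match is only a run of letters and was not measured as a binding site here.

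Values are log2 expression after RMA, so a difference of 1 is a doubling, and levels of different genes cannot be set against each other. The tissue label was borne out by hepatocyte markers, whose mean over 11 genes measured of 12 listed was 13.40 to 13.44 in untreated livers, 13.28 to 13.36 in WT LPS and 13.27 to 13.35 in S534A LPS. Exocrine pancreas transcripts, over 14 genes measured of 16, stood between 5.64 and 5.99 in untreated livers but at 8.10 in WT LPS replicate 2, 6.51 in WT LPS replicate 3 and 9.08 in S534A LPS replicate 3. Neutrophil markers (11 of 11 measured) averaged 5.47 to 5.60 in untreated livers, 6.58 to 6.85 in WT LPS and 6.96 to 7.27 in S534A LPS. The untreated group also fell into pairs by circadian genes. Dbp, a clock output factor, read 8.14, 11.19, 7.59 and 11.39 in untreated replicates 1 to 4, against 8.80, 9.39, 9.47 and 9.47 in WT LPS and 8.58, 8.91, 9.39 and 8.36 in S534A LPS. Per1, a core clock gene, read 6.58, 9.27, 6.63 and 8.77 in the untreated replicates, 8.81, 8.81, 8.90 and 8.66 in WT LPS, and 7.94, 8.87, 8.66 and 8.57 in S534A LPS. Untreated replicates 2 and 4 were thus high and replicates 1 and 3 low for both genes. The LPS arrays lay between the pairs for Dbp, and for Per1 they lay above the low pair, with 4 of the 8 above untreated replicate 4. Arntl, which encodes BMAL1, went the other way, at 9.03, 6.29, 9.08 and 6.20. The sources used here do not give the hour of collection. Calls of the receptors and counts of the target and partner lists are therefore given with all 4 untreated arrays and, where they change, with a pair left out. They are likewise given without the 3 arrays with pancreas transcripts where they change.

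The first comparison, WT LPS against WT untreated, asks what LPS changed in normal livers. CAR was much lower after LPS, by 4.68-fold, and PXR, FXR and PPAR alpha were lower by 1.54-fold, 1.36-fold and 1.49-fold, whereas HNF4 alpha was higher by 1.30-fold. SHP, LXR alpha, RXR alpha, LRH-1 and AHR did not pass the test. In all comparisons the differences given under receptor names are those of their transcripts. Neither receptor protein nor receptor activity was measured. In limma's moderated test with Benjamini-Hochberg adjustment over all genes, 5 of the 10 passed an adjusted p of 0.05, against 25.0% of all genes, with 4 lower (15.6% of all genes) and 1 higher (9.34%). The groups did not overlap for 3 of the 10, Nr1i3, Nr1h4 and Hnf4a, against 24.6% of all genes (14.9% lower and 9.78% higher). Of the 10, 3 passed without untreated replicates 2 and 4 (20.8% of all genes), 6 without replicates 1 and 3 (25.6%), and 3 when the 3 arrays with pancreas transcripts were left out (16.2%). The median difference over the 10 was -0.11 on the log2 scale, and 0.02 over all genes. In whole liver, fewer cells of a type and less RNA per cell cannot be told apart. Of hepatocyte markers 1 of 11 passed, and it was lower. Neutrophil markers passed as higher in 9 of 11, sinusoidal endothelial markers as lower in 5 of 10 and higher in 1, stellate cell markers as lower in 4 of 9, and Kupffer cell markers as lower in 3 of 10 and higher in 1, and their part in the receptor differences was not tested.

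**Figure D1:**
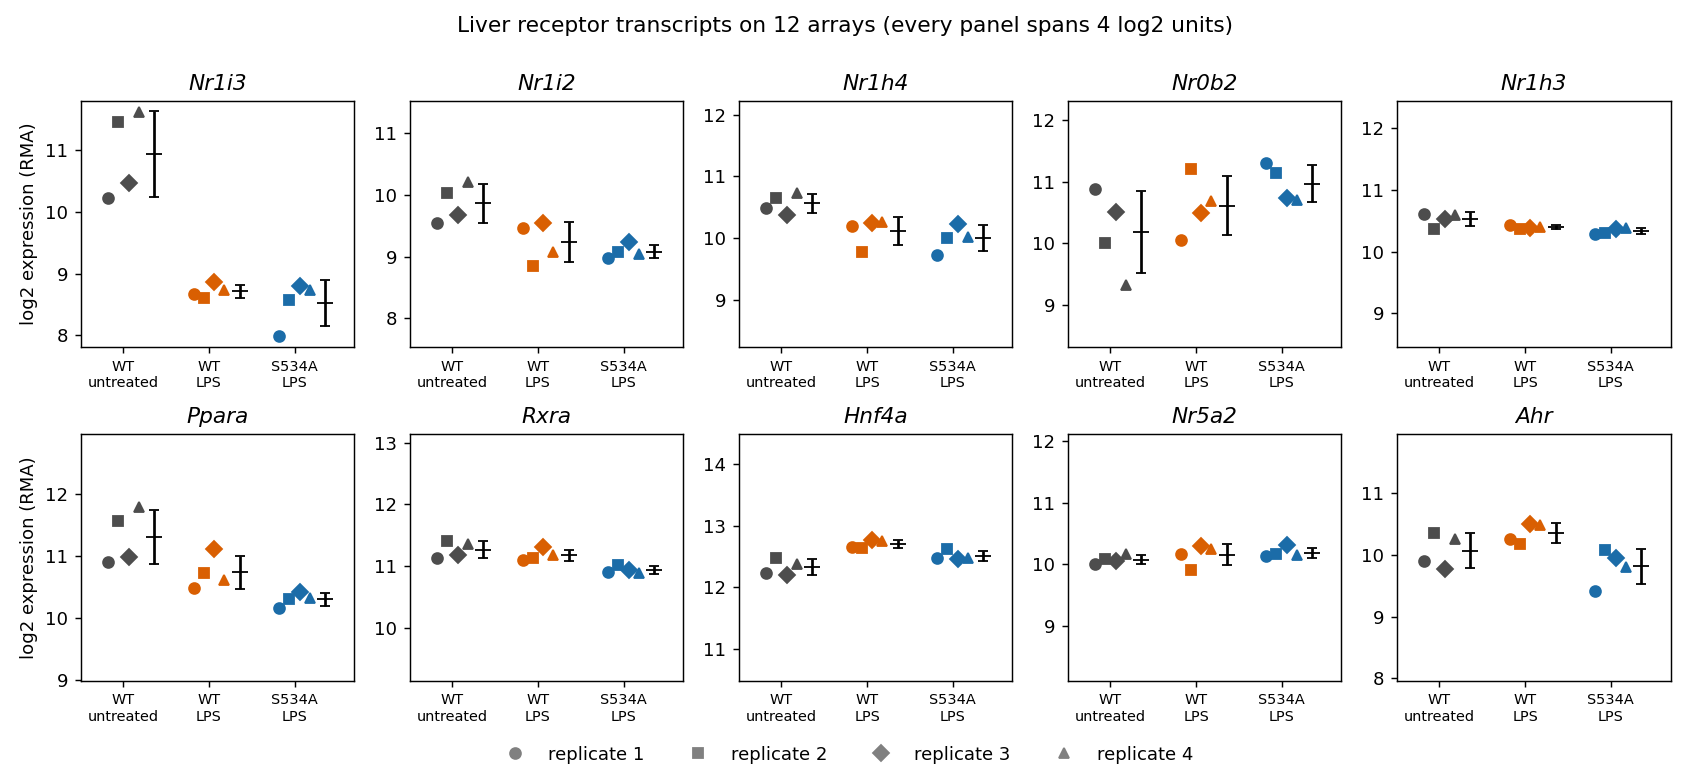
Log2 expression of the 10 genes in each of the 12 arrays, with 1 panel per gene, panels spanning the same number of log2 units, points for single arrays marked by replicate number, and bars for the group mean ± SD. Nr1i3 shows the widest gap between untreated arrays (10.22 to 11.62) and the LPS arrays (7.99 to 8.86), and untreated replicates 2 and 4 lie above 1 and 3 for Nr1i3 and Ppara and below them for Nr0b2.

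Among the xenobiotic sensors, Nr1i3 read 10.22, 11.46, 10.47 and 11.62 in untreated replicates 1 to 4, 8.67, 8.60, 8.86 and 8.73 in WT LPS, and 7.99, 8.57, 8.80 and 8.74 in S534A LPS. Every LPS array lay below every untreated array, and the 4 WT LPS arrays differed little from each other. CAR, which it encodes, drives Cyp2b genes and other drug-metabolising enzymes. The WT difference was -2.23 ± 0.28 (SE) with an adjusted p of 7.54e-05 by limma, between means of 8.71 ± 0.11 (SD, n = 4) and 10.94 ± 0.70. It was -1.63 without untreated replicates 2 and 4 and -2.82 without replicates 1 and 3, with adjusted p by limma of 0.000102 and 1.34e-06.

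Nr1i2, which encodes PXR, the main sensor behind Cyp3a induction, read 9.54, 10.03, 9.67 and 10.20 in untreated replicates 1 to 4 and 9.47, 8.85, 9.54 and 9.07 in WT LPS, and 8.98, 9.07, 9.23 and 9.04 in S534A LPS. WT LPS replicate 3 reached the level of untreated replicate 1, and the other LPS arrays lay below all untreated arrays. The difference was -0.63 ± 0.17 (SE) with an adjusted p of 0.0142 by limma. It did not pass without untreated replicates 2 and 4 (-0.37, adjusted p = 0.162), without the 3 arrays with pancreas transcripts (-0.59, adjusted p = 0.0535), with array weights (-0.37, adjusted p = 0.0672) or in the exact permutation test (two-sided p = 0.0571).

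Ahr read 9.91, 10.36, 9.77 and 10.25 in untreated replicates 1 to 4, 10.27, 10.17, 10.51 and 10.49 in WT LPS, and 9.41, 10.08, 9.95 and 9.81 in S534A LPS. WT LPS arrays overlapped untreated replicates 2 and 4 and lay above replicates 1 and 3. AHR binds dioxins and plant and tryptophan-derived ligands and induces Cyp1 genes. The WT difference of 0.29 ± 0.16 (SE) had an adjusted p of 0.214 by limma, with a 95% interval of -0.05 to 0.63. It was 0.52 (adjusted p = 0.0434) without untreated replicates 2 and 4, 0.05 (adjusted p = 0.827) without replicates 1 and 3, and 0.49 (adjusted p = 0.0279) with array weights.

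Of the bile acid regulators, Nr1h4 read 10.49, 10.65, 10.38 and 10.74 in untreated replicates 1 to 4, 10.19, 9.78, 10.24 and 10.27 in WT LPS, and 9.72, 10.01, 10.23 and 10.02 in S534A LPS. All LPS arrays were lower than all untreated arrays, and WT LPS replicate 2, one of the arrays with pancreas transcripts, was the lowest of its group. FXR, its product, limits bile acid synthesis and promotes bile acid export. The WT difference was -0.44 ± 0.13 (SE), adjusted p = 0.0235 by limma. It did not pass without untreated replicates 2 and 4 (-0.31, adjusted p = 0.203), without the 3 arrays with pancreas transcripts (-0.33, adjusted p = 0.0968), with array weights (-0.27, adjusted p = 0.0876), or with any of 3 single arrays left out, namely untreated replicate 2 or 4 or WT LPS replicate 2 (adjusted p = 0.0595, 0.0666 and 0.0558).

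Nr0b2 read 10.87, 10.01, 10.50 and 9.33 in untreated replicates 1 to 4, 10.05, 11.21, 10.49 and 10.69 in WT LPS, and 11.29, 11.13, 10.73 and 10.70 in S534A LPS. The untreated values spread over more than 1 log2 unit, with replicate 4 the lowest and replicate 1 the highest, and covered most of the WT LPS range. SHP, its product, is the corepressor through which FXR lowers Cyp7a1. WT LPS exceeded untreated by 0.43 ± 0.30 (SE), adjusted p = 0.341 by limma. Its sign depended on the untreated pair: it was -0.077 (adjusted p = 0.908) without replicates 2 and 4 and 0.94 (adjusted p = 0.0356) without replicates 1 and 3.

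Nr5a2, which encodes LRH-1, an activator of Cyp8b1 and other bile acid and cholesterol transport genes, stayed within 9.92 to 10.31 on all 12 arrays. Its group means were 10.08 ± 0.07 (SD, n = 4) in untreated livers, 10.16 ± 0.17 in WT LPS and 10.19 ± 0.08 in S534A LPS, and the 3 groups overlapped. The WT difference was 0.08 ± 0.08 (SE), adjusted p = 0.524 by limma. With array weights it was 0.20 (adjusted p = 0.0413).

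For lipid metabolism, Ppara read 10.91, 11.57, 10.98 and 11.80 in untreated replicates 1 to 4, 10.48, 10.73, 11.11 and 10.62 in WT LPS, and 10.16, 10.31, 10.42 and 10.32 in S534A LPS. WT LPS replicate 3 lay between the lower and the higher pair of untreated arrays and the other WT LPS arrays lay below all of them. PPAR alpha switches on fatty acid oxidation and ketogenesis in fasting. The WT difference was -0.58 ± 0.19 (SE), adjusted p = 0.0391 by limma. It was -0.21 (adjusted p = 0.401) without untreated replicates 2 and 4 and -0.94 (adjusted p = 0.000937) without replicates 1 and 3, and it passed in only 4 of the 12 fits that each left out 1 array (adjusted p between 0.0138 and 0.106). It did not pass with array weights (adjusted p = 0.282), in a fit of only the groups compared (adjusted p = 0.097) or in the exact permutation test (two-sided p = 0.0857).

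Nr1h3, which encodes LXR alpha, the oxysterol sensor of cholesterol efflux and lipogenesis, read 10.62, 10.36, 10.53 and 10.59 in untreated replicates 1 to 4, 10.43, 10.37, 10.38 and 10.40 in WT LPS, and 10.28, 10.30, 10.36 and 10.39 in S534A LPS. Untreated replicate 2 sat with the LPS arrays and the other untreated arrays lay above them. The WT difference of -0.13 ± 0.06 (SE) had an adjusted p of 0.165 by limma, and 0.0394 with untreated replicate 2 left out.

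Rxra, the shared partner, read 11.12, 11.40, 11.18 and 11.37 in untreated replicates 1 to 4, 11.10, 11.14, 11.31 and 11.18 in WT LPS, and 10.91, 11.02, 10.93 and 10.88 in S534A LPS. WT LPS arrays overlapped the untreated ones, and S534A LPS arrays lay below both. The WT difference was -0.09 ± 0.07 (SE), adjusted p = 0.434 by limma, and its sign turned, to 0.028, without untreated replicates 2 and 4, and to 0.013 with array weights. RXR alpha is needed by CAR, PXR, FXR, LXR alpha and PPAR alpha alike.

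Hnf4a, a master regulator of the hepatocyte programme, read 12.23, 12.47, 12.20 and 12.39 in untreated replicates 1 to 4, 12.65, 12.64, 12.77 and 12.76 in WT LPS, and 12.48, 12.62, 12.46 and 12.48 in S534A LPS. All WT LPS arrays were above all untreated arrays. S534A LPS arrays lay below all WT LPS arrays, and S534A LPS replicate 3 lay just below untreated replicate 2, the highest of its group. WT LPS exceeded untreated by 0.38 ± 0.07 (SE), adjusted p = 0.00166 by limma. It passed in 12 of 12 fits that left out an array (adjusted p between 0.000953 and 0.00711), without the 3 arrays with pancreas transcripts (0.38, adjusted p = 0.0221) and with either untreated pair left out (0.49 and 0.28).

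**Figure D2:**
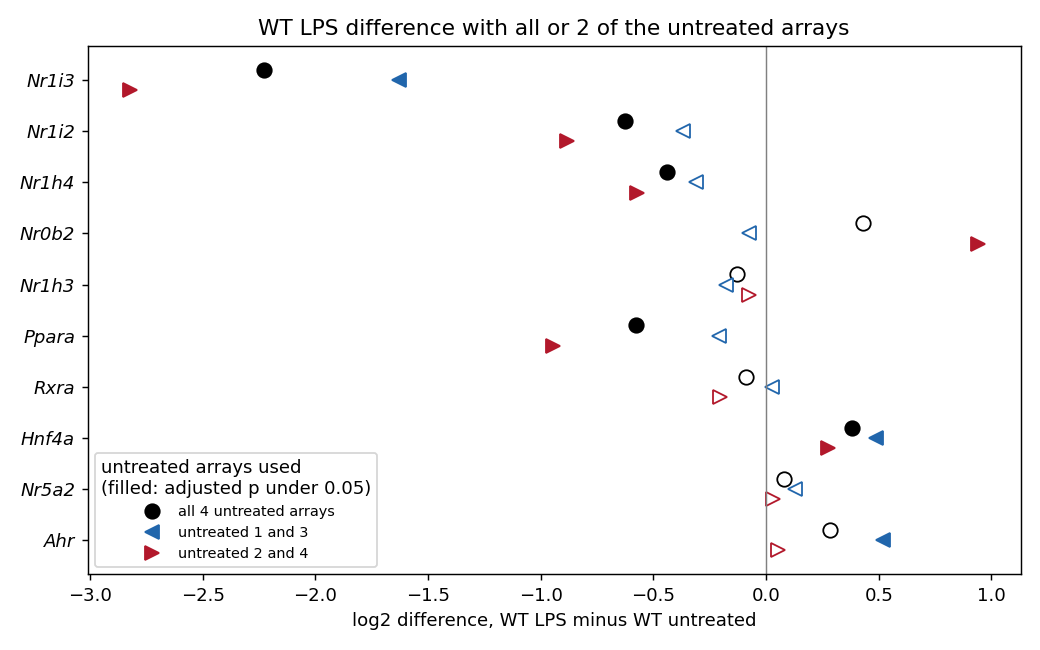
Log2 difference of WT LPS minus WT untreated for each of the 10 genes with all 4 untreated arrays, with only replicates 1 and 3, and with only replicates 2 and 4. Nr1i3 stayed far below 0 and Hnf4a above 0 in each case, while Nr0b2 moved from -0.077 to 0.94, Ppara from -0.21 to -0.94 and Ahr from 0.52 to 0.05.

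The untreated livers were unusually variable for several of these genes. The SD over the 4 untreated arrays was 0.70 for Nr1i3, exceeded by 0.572% of all genes, 0.67 for Nr0b2 (0.697%), 0.44 for Ppara (2.60%), 0.31 for Nr1i2 (7.41%) and 0.28 for Ahr (10.3%), where the median over all genes was 0.13. For 8 of the 10, all but Nr0b2 and Nr1h3, replicates 2 and 4 both lay above replicates 1 and 3, an order seen in 22.2% of all genes and in 31.5% of the 1993 brightest. Nr0b2 showed the opposite order, as did 34.0% of all genes. After the arrays were quantile normalised again the counts were 7 and 2 of 10. The shares were then 19.4% and 32.9% of all genes, and 25.7% and 29.3% of the brightest. These are the same pairs that Dbp and Per1 separate, and Nr1i3, Nr1i2, Ppara and Ahr were high where Dbp and Per1 were high and Nr0b2 was low there. The pairs also differed in array median, at 6.17 and 6.15 in untreated replicates 2 and 4 and 6.22 and 6.23 in replicates 1 and 3. They were seen in these data and are not groups of the study. The parts of the clock and of array-wide shifts in the receptor values were not tested.

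**Figure D3:**
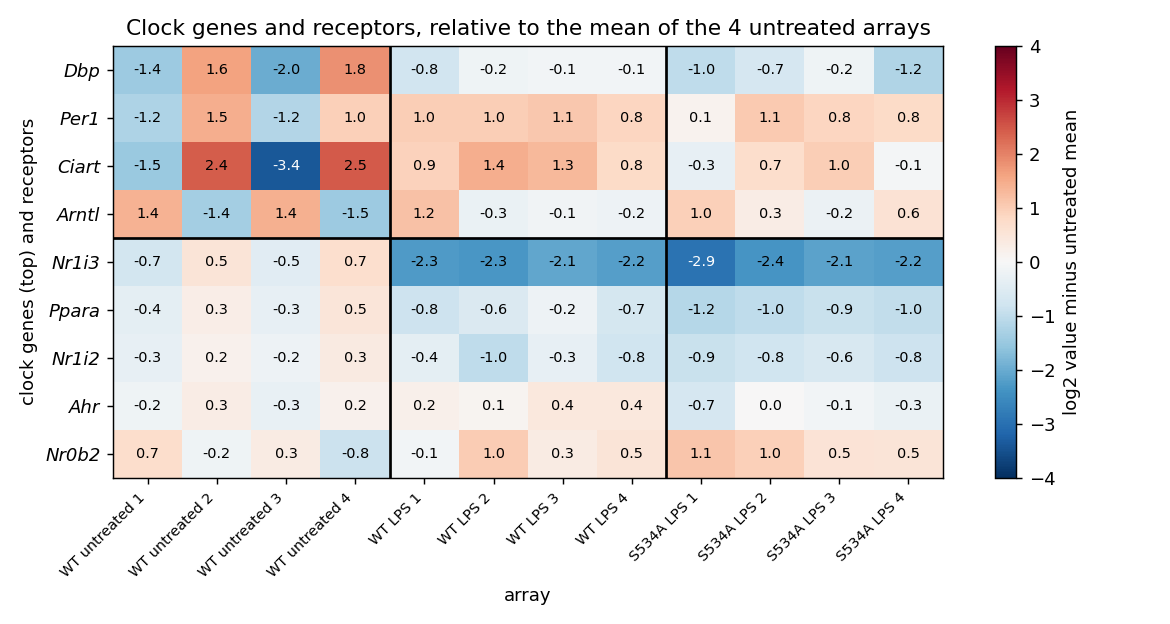
Heat map of log2 values relative to the mean of the untreated arrays for the clock genes Dbp, Per1, Ciart and Arntl and for Nr1i3, Ppara, Nr1i2, Ahr and Nr0b2, with 1 column per array. In untreated replicates 2 and 4, Dbp, Per1, Ciart and the first 4 receptors are above the mean and Arntl and Nr0b2 below it, and replicates 1 and 3 show the reverse.

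The second comparison, S534A LPS against WT LPS, asks how livers given LPS differ when p65 carries the substitution. RXR alpha, AHR, PPAR alpha and HNF4 alpha read lower in every S534A array than in every WT LPS array, by 1.18-fold, 1.46-fold, 1.35-fold and 1.15-fold, but none of these differences passed after adjustment over all genes. By limma, 0 of 10 passed, against 0.171% of all genes (0.166% higher and 0.00502% lower), and 4 of 10 had an unadjusted p under 0.05, all lower, against 5.76% of all genes in either direction and 1.54% lower. Groups without overlap and S534A lower were found for the same 4, against 1.18% of all genes, where 3.25% had S534A higher and 4.43% either order. With array weights, 2 of 10 passed, against 2.39% of all genes. By limma 0 of 10 passed without untreated replicates 2 and 4 (0.361% of all genes), without replicates 1 and 3 (0.261%) and with the 3 arrays with pancreas transcripts left out (0.00502%). Without the 3 arrays with pancreas transcripts, 2 of 10 had an unadjusted p under 0.05 by limma. With all arrays, the median difference over the 10 was -0.17, and 0.01 over all genes.

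For Ahr the difference was -0.54 ± 0.16 (SE; 95% interval -0.88 to -0.20), with an unadjusted p of 0.00429 and an adjusted p of 0.331 by limma. WT LPS arrays ran from 10.17 to 10.51 and S534A LPS arrays from 9.41 to 10.08, with S534A LPS replicate 1 the lowest. AHR was therefore the receptor with the smallest p of the 10 between genotypes, and with array weights it was -0.59 with an adjusted p of 0.0313. For Rxra the difference was -0.24 ± 0.07 (SE), with an unadjusted p of 0.00658 and an adjusted p of 0.406, and -0.28 with array weights (adjusted p = 0.0304). Of the other 2, Hnf4a differed by -0.20 ± 0.07 (unadjusted p = 0.0174, adjusted p = 0.588) and Ppara by -0.44 ± 0.19 (unadjusted p = 0.0372, adjusted p = 0.798). In Hnf4a, a gene that LPS had raised in WT livers, S534A replicate 2 was the nearest to the WT LPS arrays. Each of the 4 had an exact two-sided permutation p of 0.0286, the smallest that 4 against 4 arrays allow. Without the 3 arrays with pancreas transcripts the differences were -0.61 for Ahr, -0.20 for Rxra, -0.18 for Hnf4a and -0.29 for Ppara, with adjusted p by limma between 0.881 and 0.926.

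For the other 6 genes the adjusted p by limma was 1 and the genotypes overlapped. The Nr1i3 difference was -0.19, with a 95% interval of -0.80 to 0.42, which spans both lower and higher CAR expression in S534A livers. This interval also draws on the untreated arrays, where the Nr1i3 SD was 0.70, against 0.11 in WT LPS and 0.37 in S534A LPS. Nr1i2 differed by -0.15, Nr1h4 by -0.13 and Nr1h3 by -0.07. Nr0b2 differed by 0.35 (95% interval -0.31 to 1.01), and Nr5a2 by 0.03. Neutrophil markers passed as higher in S534A LPS in 2 of 11 (0.166% of all genes), with 7 of 11 at an unadjusted p under 0.05 (5.76%). Without the 3 arrays with pancreas transcripts 0 of 11 passed by limma and 5 had an unadjusted p under 0.05. Sinusoidal endothelial markers passed in 0 of 10 by limma, with 4 of 10 at an unadjusted p under 0.05 and a median difference of -0.17. Without the 3 arrays with pancreas transcripts, 7 of 10 had an unadjusted p under 0.05 and the median was -0.31. The part of these cells in the receptor differences was not tested.

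**Figure D4:**
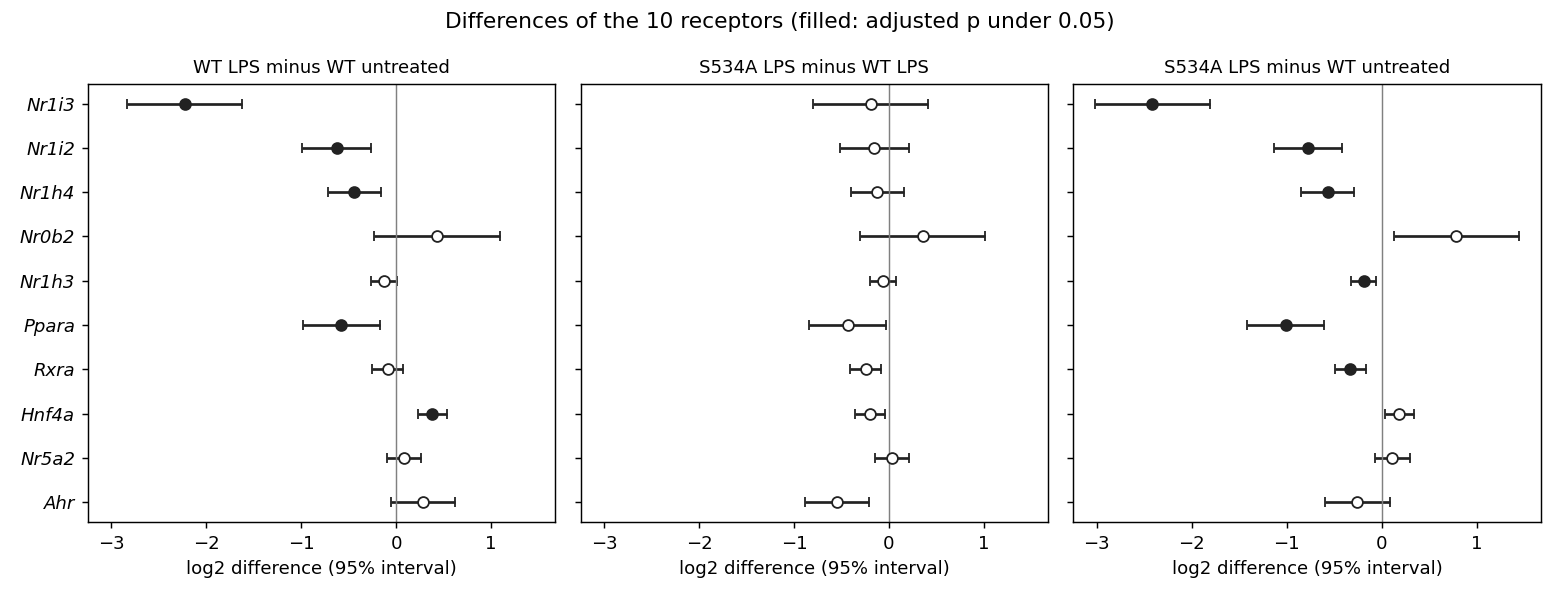
Log2 differences of the 10 genes with 95% intervals in 3 panels, for the response to LPS in WT livers, the genotypes after LPS, and S534A LPS against untreated livers, filled where the adjusted p was under 0.05. In the genotype comparison no point is filled, and the intervals of Ahr, Rxra, Hnf4a and Ppara lie below 0.

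The third comparison, S534A LPS against WT untreated, shares its untreated arrays with the first and its S534A arrays with the second, so its values are only set beside theirs. CAR was lower by 5.34-fold, PPAR alpha by 2.02-fold, PXR by 1.72-fold, FXR by 1.48-fold, RXR alpha by 1.26-fold and LXR alpha by 1.14-fold. In all, 6 of 10 passed, all lower, against 16.0% of all genes lower, 11.0% higher and 26.9% in either direction. For 5 of these, all but Nr1h3, no S534A LPS array overlapped an untreated one, against 17.5% of all genes lower without overlap, 13.8% higher and 31.3% in either direction. Their differences were -2.42 for Nr1i3, -1.01 for Ppara, -0.78 for Nr1i2, -0.57 for Nr1h4, -0.33 for Rxra and -0.19 for Nr1h3, with adjusted p by limma of 3.02e-05, 0.00121, 0.0033, 0.00503, 0.00486 and 0.036. The corresponding WT differences were -2.23, -0.58, -0.63, -0.44, -0.09 and -0.13. Hnf4a, which passed as higher in WT LPS, differed by 0.19 here (adjusted p = 0.0768). Nr0b2 differed by 0.79 (adjusted p = 0.0769), Nr5a2 by 0.11 (adjusted p = 0.365) and Ahr by -0.26 (adjusted p = 0.264). The sign of the Ahr difference was positive in WT and negative in S534A livers, and the difference between these is the genotype comparison above.

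Of the 10, 5 passed without untreated replicates 2 and 4 (22.8% of all genes), 7 without replicates 1 and 3 (27.4%), and 5 when the 3 arrays with pancreas transcripts were left out (25.1%). Without untreated replicates 2 and 4, Nr1h4 (-0.44, adjusted p = 0.0641) and Rxra (-0.22, adjusted p = 0.0658) did not pass and Hnf4a did (0.29, adjusted p = 0.0127). Without untreated replicates 1 and 3, Nr1h3 did not pass (-0.14, adjusted p = 0.189), whereas Nr0b2 (1.29, adjusted p = 0.00667) and Ahr (-0.49, adjusted p = 0.0457) did. The Nr1h3 call passed in 4 of 12 fits that left out 1 array and was lost without the 3 arrays with pancreas transcripts (adjusted p = 0.0777). The falls of Nr1i3, Nr1i2 and Ppara passed with either untreated pair left out and without the arrays with pancreas transcripts.

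Known targets and partners of the receptors were then counted. In these lists a gene is counted as higher or lower only where it passed by limma over all genes. In WT LPS against untreated, 25.0% of all genes passed. In S534A LPS against WT LPS, 0.171% of all genes passed by limma and 5.76% had an unadjusted p under 0.05. The lists overlap in a few genes, such as Cyp8b1 and Abcg8.

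Of 19 measured CAR and PXR targets (23 listed), 2 rose and 5 fell after LPS in WT livers, with a median difference of -0.13. The counts were 2 and 3 without the 3 arrays with pancreas transcripts, 2 and 6 without untreated replicates 2 and 4, and 1 and 5 without replicates 1 and 3. Gadd45b, a stress gene that CAR also induces, rose by 2.35 ± 0.15 (SE), and the drug-metabolising Cyp3a25 and the canalicular exporter Abcc2 fell by 0.57 ± 0.09 and 0.71 ± 0.11. Cyp2b10, the standard readout of CAR, was looked at after its values were seen: it read 8.00, 9.27, 7.98 and 8.78 in untreated replicates 1 to 4, 10.76, 9.95, 11.02 and 9.81 in WT LPS, and 7.95, 9.11, 9.60 and 9.62 in S534A LPS. WT LPS arrays lay above all others, and S534A LPS arrays overlapped the untreated ones. It rose by 1.87 ± 0.41 (SE) in WT livers (adjusted p = 0.00427 by limma) while Nr1i3 fell, but did not pass without untreated replicates 1 and 3 (1.36, adjusted p = 0.0513). Its S534A LPS minus WT LPS difference was -1.31 ± 0.41 (unadjusted p = 0.00679, adjusted p = 0.406 by limma).

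Between genotypes, 0 of the 19 CAR and PXR targets passed by limma. An unadjusted p under 0.05 was seen for 7 without the 3 arrays with pancreas transcripts. With all arrays it was seen for 9, against 5.76% of all genes. Of these 9, Cyp2b10, Cyp2c50, Cyp2c54 and the haem synthesis enzyme Alas1 read lower in S534A LPS. The other 5, Cyp3a11, Cyp3a25, Ces2a, Slco1a4 and Gadd45b, read higher. Cyp3a11, the main PXR target of mouse liver, was at 12.63 on average in WT LPS and 13.18 in S534A LPS, with the S534A arrays all higher (0.55 ± 0.17, unadjusted p = 0.00557, adjusted p = 0.375 by limma). Nr1i2 itself differed by -0.15 between the same groups.

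Of 8 measured AHR targets (9 listed), 1 rose and 1 fell in WT LPS, with a median of -0.07. With the arrays with pancreas transcripts left out 1 rose and 0 fell, and with untreated replicates 1 and 3 left out 1 rose and 2 fell. Tiparp, which encodes a feedback repressor of AHR, rose by 0.96 ± 0.18 (SE; adjusted p = 0.0015 by limma), and Nqo1, a quinone reductase, fell by 0.60 ± 0.15 (adjusted p = 0.00949, and 0.0935 without the 3 arrays with pancreas transcripts). Cyp1b1 differed by 0.19 ± 0.07 and did not pass (adjusted p = 0.0742). Between genotypes 0 of the 8 passed by limma and 0 had an unadjusted p under 0.05. Cyp1a1, Cyp1b1, Ahrr and Aldh3a1 lay below the array medians (6.15 to 6.32) on all arrays, the highest value being 5.78 in Cyp1b1. Differences in such dim genes can be missed, so these counts give no measure of AHR activity.

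Of 14 measured FXR and SHP targets (15 listed), 1 rose and 3 fell, with a median of -0.11. FXR promotes bile acid export and lowers Cyp7a1 through SHP, so this list joins genes that it raises with genes that it lowers. The counts and the median therefore give no direction of FXR activity. Higher and lower genes numbered 1 and 1 without the 3 arrays with pancreas transcripts, 2 and 3 without untreated replicates 2 and 4, and 2 and 5 without replicates 1 and 3. Slc51b, a subunit of the basolateral bile acid exporter, rose by 0.75 ± 0.09 (SE). The bile acid uptake carrier Slc10a1 fell by 0.39 ± 0.08 and the sterol hydroxylase Cyp8b1 by 0.97 ± 0.20 (adjusted p = 0.00283 by limma, and 0.0518 without the 3 arrays with pancreas transcripts). Of 9 measured LRH-1 targets (10 listed), 1 rose and 2 fell, with a median of -0.22. This balance depended on the untreated arrays, with 2 higher and 1 lower (median -0.044) without replicates 2 and 4 and 0 higher and 5 lower (median -0.44) without replicates 1 and 3. Besides Cyp8b1 these were the sterol exporter Abcg8, which fell by 0.95 ± 0.26, and the HDL receptor Scarb1, which rose by 0.35 ± 0.09. Without the 3 arrays with pancreas transcripts, 0 of the LRH-1 targets passed by limma and 3 had an unadjusted p under 0.05, with adjusted p of 0.0996 for Abcg8 and 0.076 for Scarb1. Abcg8 differed by -0.38 (adjusted p = 0.0567) without untreated replicates 2 and 4, and Scarb1 by 0.23 (adjusted p = 0.086) without replicates 1 and 3.

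Of 14 measured LXR targets (14 listed), 1 rose and 7 fell, with a median of -0.32. Abca1, the cholesterol efflux pump, read 10.92, 10.93, 10.80 and 10.82 in untreated livers, 11.85, 11.84, 11.86 and 11.89 in WT LPS and 11.99, 11.86, 11.83 and 11.87 in S534A LPS. It rose by 0.99 ± 0.06 (SE). Lpcat3, which remodels membrane phospholipids, fell by 1.20 ± 0.11, and the lipogenic factor Mlxipl fell by 0.51 ± 0.09. Without the 3 arrays with pancreas transcripts, 1 LXR target rose and 3 fell, without untreated replicates 2 and 4, 1 rose and 4 fell, and without replicates 1 and 3, 1 rose and 6 fell.

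Of 18 measured PPAR alpha targets (20 listed), 2 rose and 7 fell, with a median of -0.20. The fatty acid hydroxylases Cyp4a31 and Cyp4a10 fell by 1.59 ± 0.22 and 0.63 ± 0.12 (SE), and the peroxisomal thiolase Acaa1b fell by 0.83 ± 0.18. Acaa1b did not pass without untreated replicates 2 and 4 (adjusted p = 0.0548) or without the arrays with pancreas transcripts (adjusted p = 0.0759). Without the 3 arrays with pancreas transcripts, 0 rose and 2 fell, and without untreated replicates 2 and 4, 4 rose and 7 fell. Between genotypes 0 of the 18 passed by limma and 5 had an unadjusted p under 0.05, or 3 without the arrays with pancreas transcripts. Cyp4a31 and Cyp4a10, which fell after LPS in WT livers, differed by 0.65 and 0.37 between S534A LPS and WT LPS (adjusted p = 0.484 and 0.424), opposite in sign to Ppara itself. Angptl4, another listed target, read 10.52, 10.08, 10.42 and 9.96 in WT LPS and 9.58, 10.01, 9.47 and 9.26 in S534A LPS. Most of its S534A LPS values were lower, the direction of Ppara, but the groups overlapped.

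Of 14 measured HNF4 alpha targets (16 listed), 1 rose and 4 fell, with a median of -0.17, while Hnf4a rose. The coagulation factor gene F7 fell by 0.42 ± 0.07 (SE), the urea cycle enzyme Otc by 0.34 ± 0.08 and the thyroid hormone carrier Ttr by 0.20 ± 0.05. Without the 3 arrays with pancreas transcripts, 0 rose and 1 fell, and Otc (adjusted p = 0.0614) and Ttr (adjusted p = 0.0889) no longer passed by limma. Without untreated replicates 2 and 4, 1 rose and 2 fell (Ttr did not pass, adjusted p = 0.0819), and without replicates 1 and 3, 0 rose and 3 fell.

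**Figure D5:**
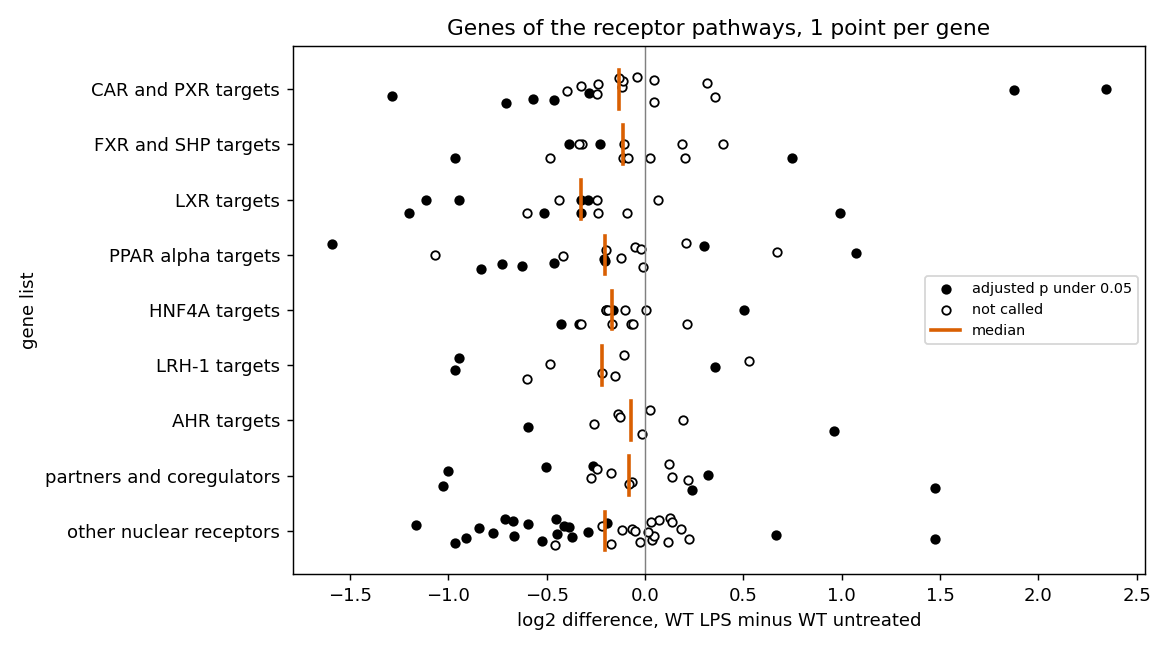
Log2 difference of WT LPS minus WT untreated for every measured gene of each target and partner list, with list medians marked. Medians lie between -0.32 for LXR targets and -0.07 for AHR targets, and members of each list lie on both sides of 0.

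Of 15 measured partners, coactivators and corepressors (18 listed), 3 rose and 4 fell, with a median of -0.08. The split was 3 and 2 without the 3 arrays with pancreas transcripts, 3 and 3 without untreated replicates 2 and 4, and 1 and 6 without replicates 1 and 3. Rxrg, which encodes another RXR isotype, read 8.53, 7.42, 8.61 and 7.76 in untreated replicates 1 to 4, 9.84, 9.78, 9.20 and 9.39 in WT LPS, and 9.84, 10.11, 9.99 and 10.21 in S534A LPS. All LPS arrays were above all untreated arrays, and untreated replicates 2 and 4 were the lowest. It rose by 1.48 ± 0.24 (SE; adjusted p = 0.000582 by limma), while Rxra did not pass. The coactivators Ppargc1b, which stimulates mitochondrial gene programmes, and Ncoa1 fell by 1.03 ± 0.15 and 0.50 ± 0.10.

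Of 36 measured other nuclear receptors of the mouse (40 listed), 2 rose and 17 fell, with a median of -0.21, against 9.34% of all genes higher and 15.6% lower. Nr2f2 (COUP-TFII) fell by 1.17 ± 0.10 (SE), the thyroid hormone receptor Thra by 0.77 ± 0.09 and the retinoic acid receptor Rara by 0.97 ± 0.13. Nr2f2 read 8.71, 8.99, 8.84 and 9.14 in untreated livers and 7.73, 7.69, 7.83 and 7.77 in WT LPS, with no overlap. The count was 1 higher and 12 lower without the 3 arrays with pancreas transcripts, 4 and 11 without untreated replicates 2 and 4, and 3 and 15 without replicates 1 and 3. COUP-TFII is also expressed by endothelial and stellate cells. Sinusoidal endothelial markers passed as lower in 5 of 10 and higher in 1, and stellate cell markers as lower in 4 of 9. The part of these cells in the Nr2f2 difference was not tested. Between genotypes 0 of the 36 passed by limma and 2 had an unadjusted p under 0.05.

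Of 15 measured clock genes (17 listed), 2 rose and 3 fell in WT LPS, and 0 rose and 1 fell without the 3 arrays with pancreas transcripts. Cry1, a clock repressor, fell by 0.62 ± 0.11 (SE; adjusted p = 0.000912 by limma). Cry2 fell by 0.81 ± 0.22 and the clock output factor Hlf by 0.65 ± 0.19, but without untreated replicates 2 and 4 neither passed (adjusted p = 0.157 and 0.244), nor did they without the arrays with pancreas transcripts (0.0706 and 0.123). Without untreated replicates 2 and 4, 6 clock genes were higher and 3 lower, and without untreated replicates 1 and 3, 3 were higher and 9 lower. Between genotypes, 0 of the 15 passed by limma and 1 had an unadjusted p under 0.05. Without untreated replicates 2 and 4, 1 passed there, as lower. Cry2 read 8.21, 7.82, 8.54 and 8.16 in WT LPS and 7.41, 7.42, 7.64 and 7.33 in S534A LPS, whereas Dbp overlapped. The part of the clock in the genotype differences of the receptors was not tested.

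For each receptor, the gene with the most similar profile over the 12 arrays is given as a description, since arrays of a group share treatment and genotype. Nr1i3 was nearest to Pdk2, a pyruvate dehydrogenase kinase gene (Pearson r = 0.992; 0.947 after group means were removed). Nr1i2 was nearest to Scnn1a (0.979), Nr1h4 to Bbox1 (0.981) and Ppara to N4bp2l1 (0.975). Ahr was nearest to Lpin1 (0.952), Hnf4a to Wasl (0.956), Nr1h3 to Tmem88b (0.948), Nr0b2 to Pi16 (0.944), Rxra to Edc3 (0.931) and Nr5a2 to Snord35b (0.878). After group means were removed, the lowest of these was 0.726 for Rxra and Edc3. Pi16 read 5.25 to 5.76, below the array medians of 6.15 to 6.32, and Tmem88b read 6.16 to 6.65, near them. Profiles of such dim genes may reflect array background.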

How the data were processed

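Liver RNA of 12 arrays (Affymetrix GeneChip) in 3 groups of 4 was used. The deposited values are log2 expression per probe set, made by the authors with RMA per the submitters' processing notes. The sources used here give neither the RMA version nor the genome build of the probe annotation. RMA fits all arrays together and normalises them towards a shared distribution. Values ran from 3.43 to 14.48, and array medians from 6.15 to 6.32. Arrays of a group correlated at 0.983 to 0.996, and none was a copy of another. Replicates are numbered in label order.

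The table held 35556 probe sets, of which 21789 carried 1 symbol, 1621 several and 12146 none. Only those with 1 symbol were used, and for the 999 genes with several probe sets the brightest was taken, which left 19938 genes with no filter on dim ones. Symbols were updated through Entrez identifiers to GRCm38.p6 names for 21698 probe sets.

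A linear model over all 12 arrays was fitted with limma 3.58.1 under R 4.3.3, using lmFit and eBayes (9 residual and 3.54 prior degrees of freedom). Each SE therefore uses the spread within all 3 groups, also where the genotypes are compared. P-values were adjusted by Benjamini-Hochberg over all genes, two-sided, with a threshold of 0.05. The fitting procedure was tested on simulated data. Precision is limited by 4 arrays a group. Named genes are the 10 receptors, the 3 genes of each list with the smallest p in WT LPS against untreated, Dbp and Per1, the gene most similar to each receptor, and genes named as chosen after their values were seen. The other clock genes and the further genotype values were also picked after values were seen. The receptors and lists were chosen with earlier results of these data known, and 233 of 257 listed symbols were measured. Fits without the 3 arrays with pancreas transcripts, or without either pair of untreated arrays, were added after the data were seen. Other alternatives were each array left out in turn, array weights, a replicate block, fits of only the groups compared, repeated quantile normalisation, median centring, trend and robust settings, a filter on dim genes and other thresholds. Promoter sequences are from RefSeq.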

Additional observations from a re-analysis of the deposited data

Results flagged for a closer look

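A gap test (Dixon's, at its 95% critical value) was run on 30 groups, the 10 genes in 3 groups each, and chance alone marks about 1 in 20 groups. It marked 3 arrays. Nr1h4 was 9.78 in WT LPS replicate 2, below the 10.19 to 10.27 of the other 3 arrays, and this array carried pancreas transcripts. Hnf4a was 12.62 in S534A LPS replicate 2, above the 12.46 to 12.48 of the others. Nr5a2 was 10.31 in S534A LPS replicate 3, above the 10.14 to 10.16 of the others, and this array had the highest level of pancreas transcripts.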

How the results depend on the processing

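Of the alternative values of the 10 genes' differences, 741 kept their direction and their side of the threshold, 21 passed only under the alternative, 41 no longer passed and 7 changed sign. In WT LPS against untreated, 5 of the 10 genes passed with all arrays, 3 without the 3 arrays with pancreas transcripts, 3 without untreated replicates 2 and 4, and 2 at an adjusted p under 0.01. Leaving out each array in turn gave 3 to 5, the lowest when WT LPS replicate 2 or WT untreated replicate 4 was left out. Over all genes the count of 4983 was 3227 without the arrays with pancreas transcripts and 3143 at an adjusted p under 0.01. Signs turned for Nr0b2 (-0.077 without untreated replicates 2 and 4) and Rxra (0.013 with array weights, 0.028 without untreated replicates 2 and 4), and the causes were not tested. Array weights were lowest for WT LPS replicate 2 (0.221) and untreated replicate 4 (0.279) and highest for WT LPS replicate 3 (2.63).

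In S534A LPS against WT LPS, 4 of the 10 genes had an unadjusted p under 0.05 by limma. Without the 3 arrays with pancreas transcripts there were 2. After adjustment 0 of the 10 genes passed by limma with all arrays, 2 with array weights and 0 in each of 12 fits without 1 array. Over all genes the count of 34 was 476 with array weights, 1 without the arrays with pancreas transcripts, 72 without untreated replicates 2 and 4, 52 without untreated replicates 1 and 3, 9 at an adjusted p under 0.01, 79 at an adjusted p under 0.10 and 9 to 121 with each array left out in turn (121 without WT LPS replicate 1). Nr5a2 differed by -0.055 with array weights, by -0.056 without the arrays with pancreas transcripts and by -0.048 to 0.081 with each array left out, and the cause was not tested.

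Arrays with the same replicate number did not deviate together: the correlation of their deviations ran from -0.27 to 0.21, 1 of 12 pairs was above 0.1, and 1 of 12 arrays matched its own number best. A replicate block left 5 of 10 genes called in WT LPS against untreated (4486 over all genes) and 0 in S534A LPS against WT LPS (17 over all genes). In S534A LPS against untreated it left 5 (4884 over all genes), and Nr1h3 did not pass there (adjusted p = 0.0559). The block changed no other call of the 10 genes. In WT LPS against untreated, the calls of Nr1i2, Nr1h4 and Ppara were each lost under alternatives named in the report. So were those of Nr1h4, Nr1h3 and Rxra in S534A LPS against untreated. The number of arrays, 4 a group, limits what can be resolved.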
